A study of Mus musculus with 2 samples.

Results

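The 10 genes described here encode lysosomal proteases and an inhibitor of such proteases. They are the cysteine cathepsins Ctsb, Ctsl, Ctss, Ctsh, Ctsc and Ctsz, the asparaginyl endopeptidase Lgmn, the aspartic protease Ctsd, the serine carboxypeptidase Ctsa and the inhibitor cystatin B, Cstb. They were chosen by gene symbol, each matched 1 gene of the 26078 in the deposited matrix, and together they held 1138586 of its 90047567 unique molecular identifiers (UMIs), or 1.26%. The cells came from 2 untreated male littermates aged 8 to 10 weeks, 1 with the genotype Spta sph/sph and 1 with the genotype Spta wt/wt. Sph is an allele of the gene for alpha-spectrin, a protein of the red cell membrane skeleton, and mice with 2 sph alleles have fragile red cells. Liver cells other than hepatocytes were enriched on beads that bind F4/80, which macrophages of the mouse carry on their surface, and each suspension was loaded for a target of 10000 cells on a droplet system that counts transcripts from their 3′ ends.

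The matrix holds 2 libraries, told apart by the number 1 or 2 at the end of each cell barcode. No label ties either number to a mouse, so the libraries are called library 2 and library 1 and no genotype is attached to them. With 1 library each there is no replicate, no test between libraries was run, and all intervals are exact 95% intervals that cover counting error only. A level is given as CPM, the counts of a gene per 1000000 UMIs in the summed cells of a lineage and library. Each UMI stands for 1 molecule whatever the length of its transcript, so levels of different genes can be set side by side.

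Lysosomes are acidic compartments in which proteins taken up from outside, and those of worn-out organelles, are cut to peptides and amino acids. Cathepsins are made as inactive precursors, sorted to lysosomes largely through mannose 6-phosphate tags, and activated there by acid and by other proteases, legumain among them. Kupffer cells, the resident macrophages of the liver sinusoids, clear ageing red cells, bacteria and debris from portal blood and are rich in lysosomes. The same enzymes trim the invariant chain and antigens for presentation on MHC class II, and cystatins hold cysteine cathepsins in check when they escape into the cytosol.

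Library 2 held 9726 barcodes and library 1 held 8907, with a median of 4017 UMIs per barcode in library 2 and 2647 in library 1. After a minimum of 200 genes and a maximum of 20% mitochondrial UMIs, 6942 cells remained in library 2 and 3488 in library 1. Each cell was placed in the lineage of which it had the most markers, with at least 3 markers of a list of 8 and a lead of at least 2 over every other list, which placed 5672 cells of library 2 and 2813 of library 1. None of the 10 genes is a marker. Kupffer-gated cells numbered 4752 in library 2 and 2255 in library 1, and all 8 Kupffer markers were present in both. The F4/80 gene Adgre1 stood at 772 CPM in library 2 and 753 CPM in library 1 in these cells. Other lineages with at least 50 cells were endothelial (154 cells in library 2 and 285 in library 1) and monocyte (52 and 79), and in library 2 alone erythroid (482), B (57) and conventional dendritic (57). The libraries had 955 barcode sequences in common. Among Kupffer-gated cells, 27 of library 2 (0.568%) and 508 of library 1 (22.5%) carried a barcode that the other library held with over 5 times as many UMIs, and each comparison is therefore also given without them.

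In Kupffer-gated cells Ctsd had the highest and Ctss the lowest ratio of library 2 over library 1 among the 10 genes, and the 250 bases before their RefSeq starts are shown for reference. The sequences are from RefSeq on GRCm38.p6, at chr7:142387828-142388077 on the minus strand for Ctsd and at chr3:95526536-95526785 on the plus strand for Ctss. In GENCODE M21 the Ctsd gene starts farther out, at position 142388038, so most of its stretch lies inside the gene as placed there, while the Ctss starts coincide. RefSeq windows of 300 bases, 250 before and 50 after the start, were at hand for 7 of the 10 genes, in 9 windows. Capitals mark matches to 4 motifs, searched on both strands and chosen after matches had been seen: the E-box CACGTG, the palindrome TCACGTGA around it that TFEB and its relatives read, the antioxidant element TGACNNNGC, and the interferon-stimulated element, which is GAAA and GAAA parted by 2 bases.
Ctsd: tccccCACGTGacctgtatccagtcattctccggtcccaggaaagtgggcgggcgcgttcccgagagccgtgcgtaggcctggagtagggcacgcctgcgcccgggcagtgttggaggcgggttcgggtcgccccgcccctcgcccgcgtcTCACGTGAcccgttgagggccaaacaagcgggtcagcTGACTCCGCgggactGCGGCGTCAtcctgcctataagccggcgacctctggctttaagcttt
Ctss: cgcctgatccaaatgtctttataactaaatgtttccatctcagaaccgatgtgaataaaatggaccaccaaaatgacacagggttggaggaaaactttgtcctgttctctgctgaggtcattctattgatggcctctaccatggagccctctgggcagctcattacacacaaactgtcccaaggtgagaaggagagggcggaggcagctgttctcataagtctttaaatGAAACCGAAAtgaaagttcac

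The Ctsd window held TCACGTGA, of which the E-box is the core, a second E-box farther out, and TGACNNNGC once on each strand. TCACGTGA was found in 0.974% of the 32851 RefSeq windows and, among the 7 genes, in Ctsd and Ctsa. CACGTG alone was found in 7.15% of all windows and in Ctsa, Ctsd, Ctsl and Lgmn, and TGACNNNGC in 12.4% and in Ctsd and Ctsz. The Ctss window held the interferon-stimulated element, which 3.44% of all windows had and no other of the 7 genes. A motif read by the macrophage factor PU.1, GAGGAAGT, was found in 3.20% of all windows and in Ctss and Ctsc, and in Ctss it straddles the start, so the printed stretch shows only part of it. The AP-1 motif TGAGTCA was found in 5.20% of all windows and in none of the 7 genes. These matches are letters in a window and no binding was measured.

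Across lineages, the summed level of the 10 genes was 8507 CPM in library 2 and 4484 CPM in library 1 in endothelial-gated cells, and 6548 and 6189 CPM in monocyte-gated cells. In library 2 it was 3989 CPM in B-gated, 2568 CPM in conventional dendritic-gated and 1422 CPM in erythroid-gated cells. Kupffer-gated cells had the highest sum in both libraries, 17948 CPM in library 2 and 17095 CPM in library 1. Of all UMIs of kept cells, 66.3% lay in Kupffer-gated cells in library 2 and 70.4% in library 1, while for the single members the share ran between 74.1% for Ctsl and 88.4% for Ctsb in library 2, and between 67.5% for Ctsl and 88.8% for Lgmn in library 1. Within Kupffer-gated cells the highest and lowest of the 10 genes lay 25.9-fold apart in library 2 and 34.9-fold apart in library 1.

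**Figure D1:**
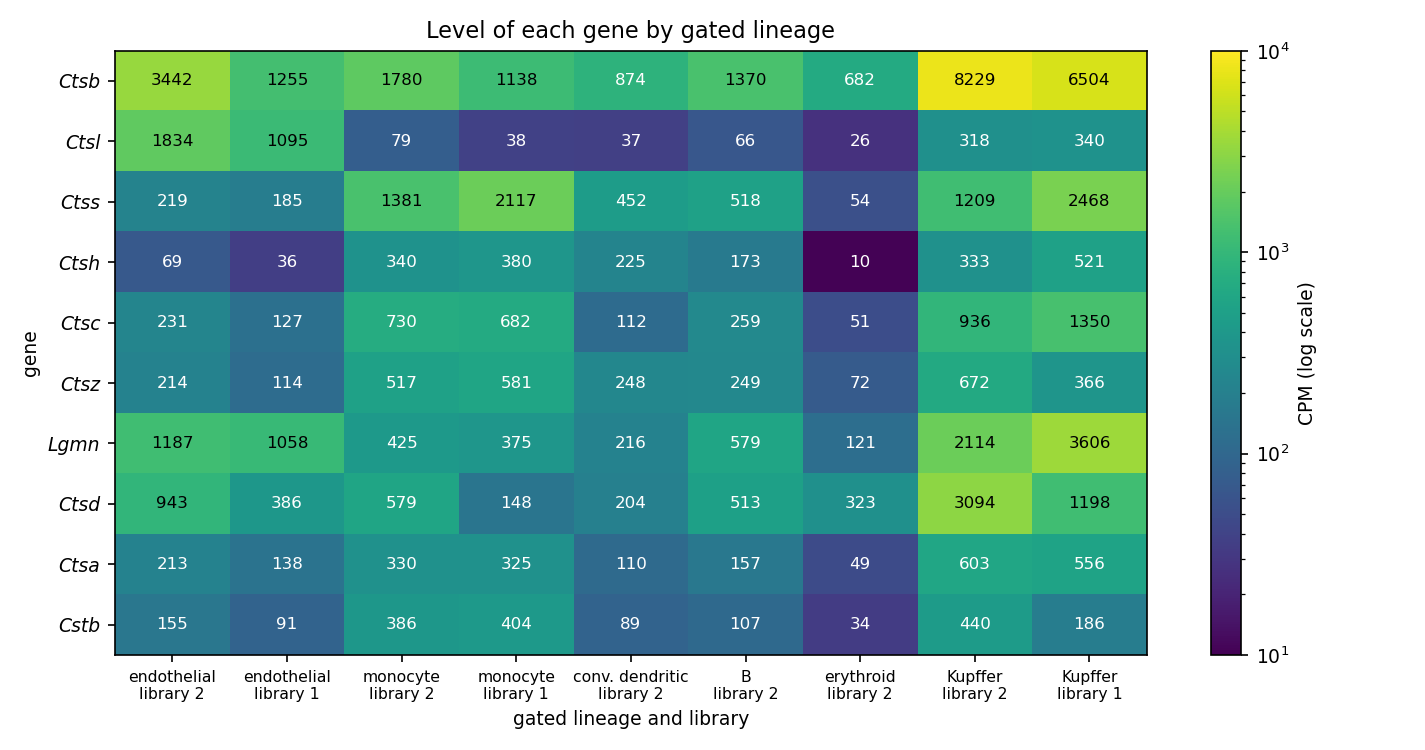
Level of each gene (rows) in CPM, coloured on a log scale, by gated lineage and library (columns; lineages with at least 50 cells). Ctsb was the highest gene in every column except monocyte-gated cells of library 1, where Ctss was, and Ctsl had its highest levels in endothelial-gated cells.

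Droplets can also carry RNA of other cells than the one they are named for, so 3 genes of Kupffer cells, Marco, Cd5l and Clec4f, were measured as a percent of their Kupffer-gated level in each other lineage. Cd5l and Clec4f are also markers of the Kupffer gate, and Marco is in no marker list. Without the shared barcodes, this range was 15.5% to 21.2% in library 2 and 4.63% to 14.5% in library 1 in endothelial-gated cells, and 7.59% to 15.0% and 1.60% to 4.55% in monocyte-gated cells. In library 2 it was 8.62% to 19.7% in B-gated, 5.82% to 8.79% in conventional dendritic-gated and 3.33% to 5.65% in erythroid-gated cells. A gene whose interval lay wholly above this range is called above the Kupffer RNA range. The range is that of the measured percents and leaves out the counting error of Marco, Cd5l and Clec4f. By this measure 8 genes in library 2 and 7 in library 1 were above it in endothelial-gated cells, and all 10 in both libraries in monocyte-gated cells. In library 2, 7 were above it in conventional dendritic-gated, 5 in B-gated and 6 in erythroid-gated cells. Some of these calls were narrow. In monocyte-gated cells the lower bound of Ctsl was 15.8% in library 2 and 6.46% in library 1, on 24 and 16 UMIs. For Ctsc in endothelial-gated cells of library 2 it was 21.21%, against 21.18% at the upper end of the range. Whether such genes stay above the range with its counting error was not tested.

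**Figure D2:**
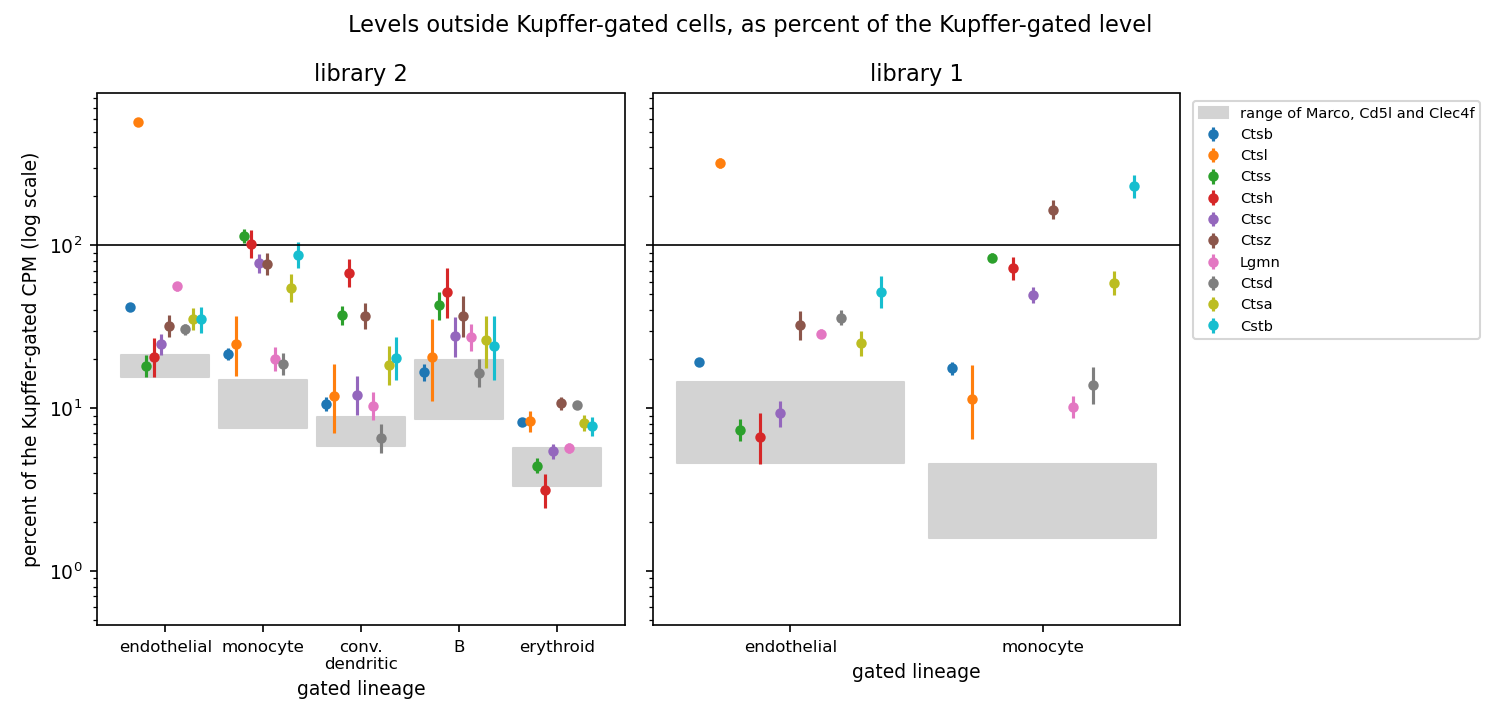
Level of each gene outside Kupffer-gated cells as a percent of its Kupffer-gated level in the same library (log scale, without shared barcodes), with 95% counting intervals, for library 2 (left) and library 1 (right). Grey bands span the percents of Marco, Cd5l and Clec4f, and the line marks the Kupffer-gated level. Ctsl in endothelial-gated cells and Ctsz and Cstb in monocyte-gated cells of library 1 stand above the line, as does Ctss in monocyte-gated cells of library 2 (114%), where the interval of Ctsh (102%) crosses it.

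Ctsb (chr14:63122462-63145923 on GRCm38, plus strand) encodes cathepsin B, an endopeptidase that also removes dipeptides from the carboxyl end. It was the most abundant member in Kupffer-gated cells, with 8229 CPM in library 2 (interval 8197 to 8261) and 6504 CPM in library 1 (6454 to 6555). In the other lineages it stood at 3442 CPM in library 2 and 1255 CPM in library 1 in endothelial-gated cells, and at 1780 and 1138 CPM in monocyte-gated cells. In library 2 the order went on with B-gated cells at 1370.3 CPM, conventional dendritic-gated cells at 874 CPM and erythroid-gated cells at 682 CPM, each interval apart from the next. In B-gated cells this was 16.6% of the Kupffer-gated level, inside the Kupffer RNA range.

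Ctsl (chr13:64359337-64370890, minus strand) encodes cathepsin L, an endopeptidase that trims the invariant chain in thymic epithelium. Its highest level was in endothelial-gated cells, with 1834 CPM in library 2 (1741 to 1931) and 1095 CPM in library 1 (1028 to 1165). Kupffer-gated cells had 318 CPM in library 2 and 339.9 CPM in library 1, so the endothelial-gated level was 577% of the Kupffer-gated one in library 2 and 322% in library 1 (323% without shared barcodes). It made up 21.6% of the members' UMIs in endothelial-gated cells of library 2 and 24.4% in library 1, against 1.77% and 1.99% in Kupffer-gated cells. In monocyte-gated cells it was the lowest of the 10 genes in both libraries, on 24 UMIs in library 2 and 16 in library 1.

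Ctss (chr3:95526786-95556403, plus strand) encodes cathepsin S, which stays active near neutral pH and cuts the invariant chain in antigen-presenting cells. Monocyte-gated cells had 1381 CPM in library 2 (1252 to 1519) and 2117 CPM in library 1 (1979 to 2261), and Kupffer-gated cells 1209 CPM in library 2 (1196 to 1221) and 2468 CPM in library 1 (2437 to 2499). The 2 lineages were thus close to each other within each library, with monocyte-gated cells at 114% of the Kupffer-gated level in library 2 and 85.8% in library 1. B-gated cells of library 2 had 518 CPM and conventional dendritic-gated cells 452 CPM, with overlapping intervals. In endothelial-gated cells Ctss was at 18.2% of the Kupffer-gated level in library 2 and 7.34% in library 1 without shared barcodes, not apart from the Kupffer RNA range in either.

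Ctsh, Ctsc and Ctsz encode exopeptidases. Ctsh (chr9:90054152-90076089, plus strand), cathepsin H, is an aminopeptidase, and in monocyte-gated cells it stood at 340.3 CPM in library 2 and 380.3 CPM in library 1, against 333 CPM in library 2 and 521 CPM in library 1 in Kupffer-gated cells. It was the member with the highest percent of the Kupffer-gated level in conventional dendritic-gated cells (67.4%) and in B-gated cells (51.7%) of library 2, in the second case with an interval that overlaps that of Ctss. Library 1 had fewer than 50 cells of each. Without shared barcodes, Cstb (92.0%) and Ctsz (90.6%) were above Ctsh (37.3%) in its 30 conventional dendritic-gated cells. In its 39 B-gated cells Ctsz (62.1%) was above Ctsh (50.5%), with overlapping intervals. Ctsc (chr7:88278085-88310888, plus strand), cathepsin C or dipeptidyl peptidase 1, activates granule serine proteases in leukocytes. It had 729.7 CPM in library 2 and 682 CPM in library 1 in monocyte-gated cells, against 936 and 1350.1 CPM in Kupffer-gated cells. Ctsz (chr2:174427493-174439039, minus strand), cathepsin Z, is a carboxypeptidase, with 517 CPM in library 2 and 581 CPM in library 1 in monocyte-gated cells, against 672 and 366 CPM in Kupffer-gated cells. Its monocyte-gated level was thus 76.9% of the Kupffer-gated one in library 2 and 159% in library 1 (166% without shared barcodes).

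Lgmn (chr12:102394084-102439813, minus strand) encodes legumain, which cuts after asparagine and processes several cathepsins to their mature chains. It had 1187 CPM in library 2 and 1058 CPM in library 1 in endothelial-gated cells and 425 and 375 CPM in monocyte-gated cells, against 2114 CPM in library 2 (2098 to 2130) and 3606 CPM in library 1 (3569 to 3643) in Kupffer-gated cells. It was the third most abundant member in Kupffer-gated cells of library 2, after Ctsb and Ctsd, and the second in library 1, after Ctsb.

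Ctsd (chr7:142375911-142388038, minus strand) encodes cathepsin D, an aspartic endopeptidase that degrades many long-lived and endocytosed proteins, globin among them. Endothelial-gated cells had 943 CPM in library 2 and 386 CPM in library 1, and monocyte-gated cells 579 and 148 CPM. B-gated cells of library 2 had 513 CPM, erythroid-gated cells 323 CPM and conventional dendritic-gated cells 204 CPM, of which the B-gated and conventional dendritic-gated levels were not apart from the Kupffer RNA range. In Kupffer-gated cells Ctsd had 3094 CPM in library 2 (3074 to 3114) and 1198 CPM in library 1 (1177 to 1220). A gene on the same strand that overlaps a Ctsd exon had 0 UMIs in both libraries.

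Ctsa (chr2:164832873-164841032, plus strand) encodes cathepsin A, a carboxypeptidase that also protects neuraminidase 1 and beta-galactosidase in lysosomes. Its level was 330.5 CPM in library 2 and 325 CPM in library 1 in monocyte-gated cells and 213 and 138 CPM in endothelial-gated cells, against 603 and 556 CPM in Kupffer-gated cells. The other genes of this complex, Neu1 and Glb1, stood at 117 and 53.5 CPM in library 2 and at 119.6 and 51.7 CPM in library 1 in Kupffer-gated cells. Exons of Ctsa, Ctsb and Ctsz overlap exons of genes on the opposite strand (Neurl2 and Pltp, Fdft1, and Nelfcd), and whether strand was used in counting is not given in the sources used here.

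Cstb (chr10:78425669-78427622, plus strand) encodes cystatin B, a cytosolic and nuclear inhibitor of cathepsins B, H, L and S. In monocyte-gated cells it had 386 CPM in library 2 (320 to 462) and 404 CPM in library 1 (346 to 470), against 440 CPM in library 2 (433 to 448) and 186 CPM in library 1 (178 to 195) in Kupffer-gated cells. The monocyte-gated level was 87.7% of the Kupffer-gated one in library 2, with an interval that includes 100%, and 217% in library 1 (231% without shared barcodes). Per 100 UMIs of the 6 cysteine cathepsins, monocyte-gated cells had 8.00 Cstb UMIs (6.58 to 9.66) in library 2 and 8.19 (6.96 to 9.58) in library 1. Endothelial-gated cells had 2.58 (2.13 to 3.08) and 3.25 (2.58 to 4.03). Kupffer-gated cells had 3.76 (3.70 to 3.83) in library 2 and 1.61 (1.54 to 1.69) in library 1, or 1.52 in library 1 without shared barcodes.

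**Figure D3:**
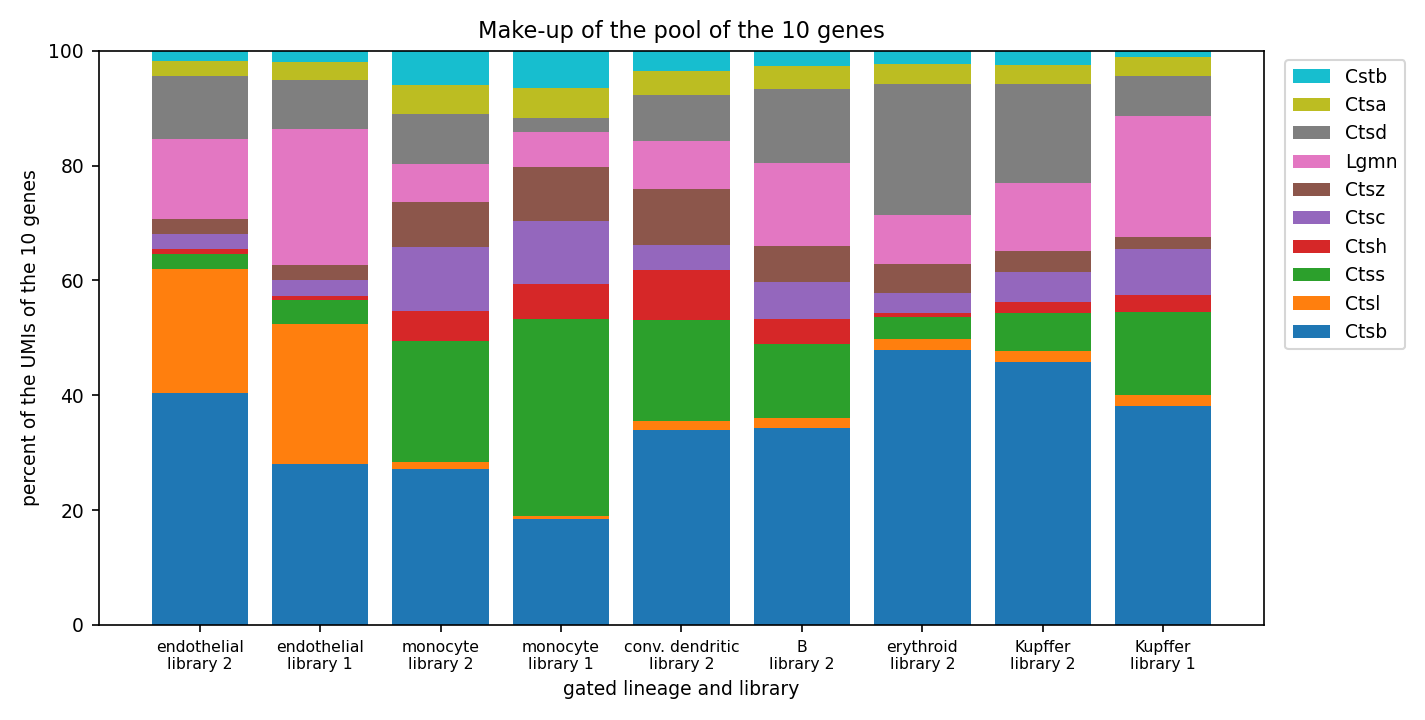
Share of each gene in the UMIs of the 10 genes (percent, stacked), by gated lineage and library. Ctsb and Ctsd made up 45.9% and 17.2% in Kupffer-gated cells of library 2, against 38.0% and 7.01% in library 1, and Ctsl is broad in endothelial-gated and Ctss in monocyte-gated cells.

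Between the libraries, Ctsd and Cstb were higher and Ctss was lower in library 2 by at least 2-fold in Kupffer-gated cells, and the other 7 genes lay within 2-fold. Ratios are library 2 over library 1 on the log2 scale. Among the 3467 genes measured there (those with 50 CPM and 30 UMIs or more in library 2 or library 1), 2.91% were at least 2-fold higher and 9.17% at least 2-fold lower, and the median log2 ratio was 0.01 over the 10 genes and -0.34 over all genes measured. Ctsd had a log2 ratio of 1.37 (1.34 to 1.40), which is 2.58-fold higher. Cstb had 1.24 (1.17 to 1.31), which is 2.36-fold higher. Ctss had -1.03 (-1.05 to -1.01), which is 2.04-fold lower in library 2 and close to the 2-fold bound.

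Ctsz had a log2 ratio of 0.88 (0.83 to 0.93), Ctsb 0.34 (0.33 to 0.35) and Ctsa 0.12 (0.07 to 0.16). On the other side were Lgmn with -0.77 (-0.79 to -0.75), Ctsh with -0.64 (-0.69 to -0.59), Ctsc with -0.53 (-0.56 to -0.50) and Ctsl with -0.10 (-0.15 to -0.04). Thus 5 of the 10 were above 0 and 5 below, and their sum was 17948 CPM in library 2 and 17095 CPM in library 1. Over the 2526 genes that reached 50 CPM in library 2 and in library 1, the median was -0.24. Relative to that median, Ctsd was at 1.61, Cstb at 1.48, Ctsz at 1.12, Ctsb at 0.58 and Ctsa at 0.36, Ctsl turned to 0.15, and Ctsc was at -0.29, Ctsh at -0.40, Lgmn at -0.53 and Ctss at -0.79, so that by this scale Ctsz passed 2-fold and Ctss did not.

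Without the shared barcodes the Kupffer-gated level of Ctsd in library 1 was 1068 CPM and its log2 ratio 1.53, which is 2.90-fold. Cstb was at 176 CPM in library 1 with a log2 ratio of 1.33, and Ctss at 2519.9 CPM with -1.06. The same 2 genes were at least 2-fold higher and the same gene at least 2-fold lower, among 3497 genes of which 3.17% were higher and 10.2% lower. The largest shift among the 10 ratios was that of Ctsd. Kupffer-gated cells also differed in other ways: globin UMIs were 8.87% of their total in library 2 and 0.265% in library 1, mitochondrial UMIs 11.5% and 13.3%, and the scavenger receptor gene Marco stood at 11884 CPM in library 2 and 996 CPM in library 1. The part of these differences in the ratios of the 10 genes was not tested beyond the splits given next and the alternative scalings.

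**Figure D4:**
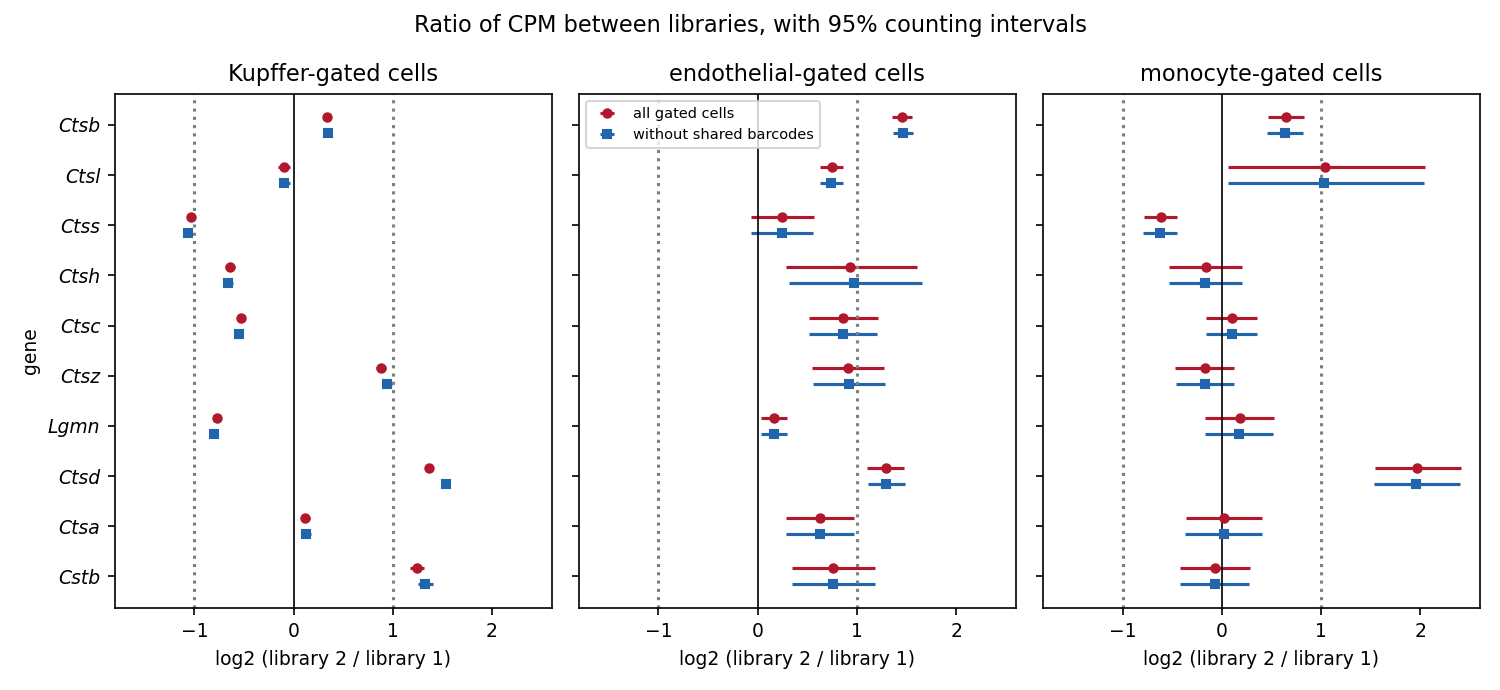
Log2 ratio of CPM, library 2 over library 1, for each gene in Kupffer-, endothelial- and monocyte-gated cells, with 95% counting intervals (circles, all gated cells; squares, without shared barcodes). Dotted lines mark 2-fold. In Kupffer-gated cells the genes spread to both sides of 0, in endothelial-gated cells all 10 are above 0, and Ctsd is above 2-fold in each of the 3 lineages.

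In endothelial-gated cells all 10 genes had a higher level in library 2, and for all except Ctss (0.25, -0.06 to 0.56) the interval excluded 0. Ctsb with 1.46 (1.36 to 1.56) and Ctsd with 1.29 (1.11 to 1.48) were at least 2-fold higher, where 5.08% of 4191 genes measured were at least 2-fold higher and 10.2% at least 2-fold lower. Without shared barcodes (4.99% of genes higher and 10.4% lower) the ratios of these 2 genes were 1.46 and 1.29. The smallest ratio was that of Lgmn, 0.17 (0.04 to 0.30), and the other 6 lay between 0.63 for Ctsa and 0.93 for Ctsh. The median was 0.81 over the 10 genes and -0.27 over all genes measured. The Kupffer genes Marco, Cd5l and Clec4f were also at a higher percent of their Kupffer-gated level in library 2 (15.5% to 21.2%) than in library 1 (4.83% to 8.62%, or 4.63% to 14.5% without shared barcodes) in these cells, and their part in the ratios was not tested.

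In monocyte-gated cells 9 genes were measured, and Ctsd was the only 1 of them past 2-fold, with a log2 ratio of 1.97 (1.54 to 2.41) on 177 UMIs in library 2 and 62 in library 1, where 3.7% of 2381 genes measured were at least 2-fold higher and 10.1% lower. Without shared barcodes (3.79% of genes higher and 10.2% lower) it was 1.96. Ctsb had 0.64 (0.46 to 0.83) and Ctss -0.62 (-0.79 to -0.45), while the intervals of the other 6 included 0. The Cstb interval in monocyte-gated cells (-0.42 to 0.28) did not reach the Kupffer-gated ratio of 1.24, and the difference between the lineages itself was not tested. Marco was at 15.0% of its Kupffer-gated level in library 2 and 2.40% in library 1 in these cells (4.55% without shared barcodes), and its part in the Ctsd ratio was not tested.

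Kupffer-gated cells without shared barcodes were also compared at matched depth, in 5 bins from 500 to 16000 UMIs per cell with at least 50 cells of each library. The log2 ratio of Ctsd lay between 0.86 and 1.62 over the bins, that of Cstb between 0.82 and 1.39 and that of Ctsz between 0.45 and 1.62. On the lower side Ctss lay between -1.38 and -0.98, Lgmn between -1.40 and -0.61, Ctsh between -1.15 and -0.62 and Ctsc between -0.95 and -0.47. These 7 genes kept the sign of their ratio in each bin. Ctsb (-0.26 to 0.49), Ctsa (-0.34 to 0.23) and Ctsl (-0.75 to 0.13) changed sign with depth, so the direction of their pooled ratios holds for some depths only.

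The level of Lgmn was 2333 CPM in the shallowest bin and 2127 CPM in the deepest in library 2, and 4867 and 3243 CPM in library 1. Ctsd had 2052 CPM in the shallowest and 3289.6 CPM in the deepest bin of library 2, and 805 and 1069 CPM in library 1. For Ctsb the order was opposite in the libraries, with 7329 CPM in the shallowest and 8633 CPM in the deepest bin of library 2, and 7118 and 6143 CPM in library 1.

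**Figure D5:**
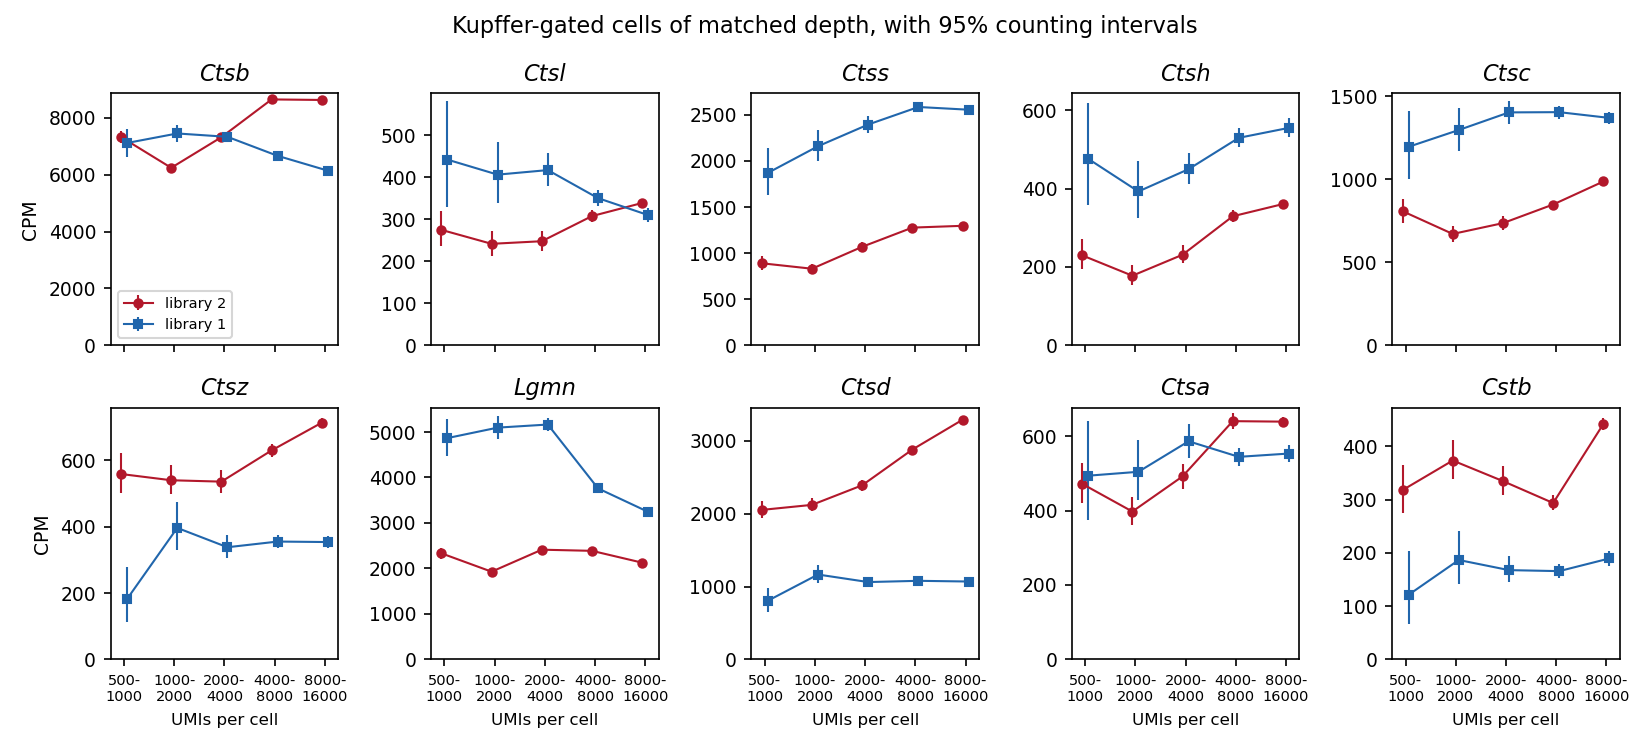
Level of each gene in CPM in Kupffer-gated cells without shared barcodes, by bin of UMIs per cell, with 95% counting intervals (circles, library 2; squares, library 1). Each panel has its own axis from 0. The libraries stay apart in each bin for Ctsd, Ctss, Ctsc, Ctsh, Ctsz, Lgmn and Cstb and cross for Ctsb, Ctsa and Ctsl.

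Kupffer-gated cells without shared barcodes were thinned to 1000 UMIs per cell, which left out 765 shallower cells of library 2 and 157 of library 1. Ctsb then had a UMI in 97.8% of 3960 cells of library 2 and 99.1% of 1590 cells of library 1. Ctsd had one in 86.5% of cells in library 2 (93.3% before thinning) and 63.0% in library 1 (89.2%). Lgmn was found in 80.9% and 94.0%, Ctss in 63.4% and 89.9%, Ctsc in 52.8% and 73.9%, Ctsz in 44.9% and 26.8%, and Cstb in 29.4% and 14.8%. In erythroid-gated cells of library 2, with a median of 10493 UMIs before thinning against 4901 in Kupffer-gated cells, the thinned share was 56.8% for Ctsb, 31.0% for Ctsd, 16.4% for Lgmn, 7.07% for Ctss and 3.12% for Cstb. The Kupffer-gated shares are above these in both libraries.

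Between thinned Kupffer-gated cells the variance over the mean was largest for Ctsb, at 2.22 in library 2 and 1.96 in library 1. Lgmn followed with 1.70 and 1.93. Ctsb also had the highest mean, 7.88 UMIs in library 2 and 6.72 in library 1. Because this measure can rise with the mean, it does not rank the genes by relative spread. For Ctsd it was 1.65 in library 2 and 1.14 in library 1, on means of 2.81 and 1.06 UMIs. In library 2 the median cell had 8 Ctsb UMIs of 1000, and the 10th and 90th percentiles were 2 and 13. In library 1 the median was 6, with 3 and 12.

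Within library 2, the 71 thinned Kupffer-gated cells with 0 Marco UMIs had 4225 CPM of Ctsb, 1619.7 CPM of Ctsd and 619.7 CPM of Lgmn, and the 1666 cells with 12 or more had 9289, 3246 and 2784 CPM. The Kupffer markers Cd5l and Clec4f went the same way, with 2732 and 845 CPM in the first cells and 9343 and 2564 CPM in the second. These 5 genes thus differed together between the cells. Globin stayed in the total of this split, and 954 of the 3960 thinned cells of library 2 had 100 or more globin UMIs. The part of such RNA was not tested. In library 1 the cells with 0 and with 3 to 5 Marco UMIs had 6566 CPM (6421 to 6713) and 7286 CPM (6634 to 7984) of Ctsb. Lgmn was at 3875 CPM (3764 to 3989) and 5143 CPM (4598 to 5734). Cd5l was at 6349 and 7095 CPM, with overlapping intervals, as for Ctsb.

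The same thinned Kupffer-gated cells were also split by their UMIs of the MHC class II genes H2-Aa, H2-Ab1, H2-Eb1 and Cd74. In library 2 Ctss was at 1039.9 CPM in cells with none, 1355 CPM with 1 or 2 such UMIs, 1645 CPM with 3 to 5 and 1500 CPM with 6 to 11, the last on 70 cells. In library 1 it was at 1643 CPM with 1 or 2, 2028 CPM with 3 to 5, 2439.7 CPM with 6 to 11 and 2724 CPM with 12 or more. Lgmn had the opposite order in library 1, with 5059.5 and 5148 CPM in the lowest bins and 3332 CPM in the highest. Over the same bins the Kupffer marker Clec4f moved as Ctss did, with 2032, 2560, 3230 and 2257 CPM in library 2. In library 1 Clec4f was at 3012, 3484, 3858 and 4185 CPM. Cd5l had 7347, 7858, 8585 and 7129 CPM in library 2 and 6440, 6852, 6672 and 6273 CPM in library 1. Ctss thus did not rise alone. At the same class II count, Ctss was at 1355 CPM in library 2 and 1643 CPM in library 1 (1 or 2 UMIs) and at 1645 and 2028 CPM (3 to 5 UMIs), and Ctsd at 2953 and 976 CPM and at 3165 and 1196 CPM. The cells of library 1 also differ in depth, with a median of 6326 UMIs at 12 or more class II UMIs and 3203 at 1 or 2, and the part of depth was not tested.

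The thinned Kupffer-gated cells of library 2, without shared barcodes, were split by globin UMIs, with globin left out of the total. Ctsd was at 3239 CPM (2822 to 3700) with none and 2717 CPM (2583 to 2855) with 100 or more. The bins between had 3324, 3125 and 3242 CPM. Cstb was at 448 CPM (302 to 639) and 369.8 CPM (322 to 423), with 464, 452 and 395 CPM between. For each gene the intervals of the end bins overlap, the bin with none being the smallest. The Ctsd interval with 100 or more lay below those of the bins between (3232 to 3417, 3006 to 3247 and 3093 to 3396). That of Cstb lay below the first bin between (430 to 500) and overlapped the others. Each level is above that of the same gene in library 1 cells with no globin UMI, 1062 CPM for Ctsd and 164 CPM for Cstb. The cells with no globin UMI were 67 in library 2, with a median of 11359 UMIs, and 1540 in library 1, with a median of 5312.5 UMIs, and the part of this depth gap was not tested in the split.

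Of all genes measured in Kupffer-gated cells, 2.91% were at least 2-fold higher and 9.17% at least 2-fold lower in library 2. Of 11 other lysosomal proteases, 4 were measured in Kupffer-gated cells, none was at least 2-fold higher and 1 was at least 2-fold lower. That 1 was the cysteine cathepsin Ctsf, with 22.5 CPM in library 2 and 57.1 CPM in library 1 and a log2 ratio of -1.34 (-1.51 to -1.18). Ctsf reached 50 CPM in library 1 alone, so it was counted only through the library where it was higher. The tripeptidyl peptidase Tpp1 had 0.37 (0.31 to 0.44), and the serine carboxypeptidases Scpep1 and Prcp had -0.50 (-0.63 to -0.37) and -0.58 (-0.69 to -0.48). The median of the 4, Ctsf included, was -0.54. The aspartic protease Ctse was at 498 CPM in erythroid-gated cells of library 2, against 10.2 CPM in Kupffer-gated cells of that library.

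Of 14 other inhibitors of cathepsins, 4 were measured in Kupffer-gated cells, 1 at least 2-fold higher and 1 at least 2-fold lower. Over all genes measured there, 2.91% were higher and 9.17% lower by this bound. Cst3, the secreted cystatin C, had 1217 CPM in library 2 and 1212 CPM in library 1, a log2 ratio of 0.01 (-0.02 to 0.04), so the library ratio of Cstb was not shared by it. Without shared barcodes the Cst3 ratio was 0.03 (0.002 to 0.06). The serpin Serpina3g had 116 CPM in library 2 and 36.6 CPM in library 1, a log2 ratio of 1.66 (1.50 to 1.82), and Serpinb6a, whose human counterpart inhibits cathepsin G, had 0.26 (0.21 to 0.30). Ctla2b, related to cathepsin propeptides, had 22.0 and 56.5 CPM and -1.36 (-1.52 to -1.20). Serpina3g reached 50 CPM in library 2 alone and Ctla2b in library 1 alone. Both were thus counted only through the library where they were higher. In conventional dendritic-gated cells of library 2, Cst3 stood at 19552 CPM, against 1217 CPM in Kupffer-gated cells.

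Of 8 genes of lysosomal targeting and regulation, 3 were measured in Kupffer-gated cells and none was past 2-fold. Over all genes measured there, 2.91% were at least 2-fold higher and 9.17% at least 2-fold lower. The mannose 6-phosphate receptor gene M6pr had a log2 ratio of -0.12 (-0.20 to -0.04), and the transcription factor genes Mitf and Tfe3 had 0.01 (-0.14 to 0.16) and -0.97 (-1.06 to -0.88). Without shared barcodes Tfe3 was at least 2-fold lower. Of 6 genes of class II peptide loading, 5 were in the matrix. All 5 were measured and at least 2-fold lower in library 2, against 9.17% of all genes measured. Their log2 ratios ran between -4.40 (-4.45 to -4.35) for H2-Aa, with 131 CPM in library 2 and 2757 CPM in library 1, and -1.79 (-1.87 to -1.72) for H2-DMa. Cd74, the invariant chain that cathepsin S cuts, had 503 CPM in library 2 and 5697 CPM in library 1, a log2 ratio of -3.50 (-3.53 to -3.48).

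Over the 9 sums of a lineage and library with at least 50 cells, the genes with the most similar pattern of log2(CPM + 1) among 6251 genes are given as a description, since the sums share libraries and 6 of the 9 come from library 2. Ctsd was most like Pld3, Slc48a1 and Fcna (Pearson r of 0.97, 0.96 and 0.95). Ctss was most like Themis2, Itgal and Ncf1 (0.99, 0.99 and 0.98) and Ctsh like Ncf1, Themis2 and Unc93b1 (0.99, 0.99 and 0.98), so that both share 2 of 3. Cstb was most like Rasa4, Fcer1g and Clec4a1 (0.96, 0.95 and 0.95). Ctsl was most like Selenop, Pitpnc1 and Dcbld1 (0.98, 0.98 and 0.97), Lgmn like Sema6d, Frmd4b and Wdfy3 (0.99, 0.97 and 0.97), and Ctsb like Nr1h3, Abcc3 and Tmem26 (0.98, 0.98 and 0.97). Ctsc was most like Lrp1, Csf1r and Lair1 (0.99, 0.99 and 0.98) and Ctsa like Mitf, Ninj1 and Sirpa (0.99, 0.99 and 0.99). Among the members themselves the highest r was that of Ctsa with Ctsc (0.97), followed by Ctsh with Ctss (0.97), and the lowest was that of Ctsl with Ctsh (-0.07).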

How the data were processed

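The deposited file is 1 joined matrix of UMI counts per gene and cell. Per the submitters' processing notes, the authors used Cell Ranger 3.0.1, R 3.6.1 and the genome build GRCm38.p5. Barcode numbers were used as libraries and no value was used to assign a mouse. The 10 genes, the marker lists, the other gene lists and the gate were chosen with earlier results of these data known. Cells of 200 or more genes whose mitochondrial UMIs were no more than 20% were gated by 13 lists of 8 markers into 12 lineages. Droplets with 2 marker programs (several lists) were left ungated, which was 865 cells of library 2 and 310 of library 1; no doublet caller was run. UMIs were summed per lineage and library. Intervals are exact Poisson (levels), conditional exact binomial (ratios) and Clopper-Pearson (shares), at 95%. Calculations used python 3.11.15, numpy 2.4.6, scipy 1.17.1 and pandas 2.3.3, and figures matplotlib 3.10.9. The ratio calculation was tested on simulated data. Genes named were all 10 members, the listed genes measured in Kupffer-gated cells, and the 3 most similar genes per member (those of Ctsz are not reported here); Ctse and the Cst3 level in dendritic-gated cells were named after their values were seen. The alternatives were other limits on mitochondrial UMIs and genes, no shared barcodes, a stricter gate, other scalings and thinning. Positions and overlaps are from GENCODE M21.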

Additional observations from a re-analysis of the deposited data

Results flagged for a closer look

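For 4 genes the log2 ratio of library 2 over library 1 lay on opposite sides of 0 in endothelial-gated and Kupffer-gated cells, each interval excluding 0. The endothelial-gated minus the Kupffer-gated log2 ratio was 1.58 for Ctsh, 1.39 for Ctsc, 0.94 for Lgmn and 0.84 for Ctsl. The Kupffer-gated ratio of Ctsl, -0.10, was above 0 with at most 10% mitochondrial UMIs (0.047), without mitochondrial and globin genes in the scaling (0.022), with scaling by the median gene (0.15) and in cells of 8000 to 16000 UMIs (0.13), so its opposite sides depend on these choices. With 1 library each the difference was not tested for any of the 4. In endothelial-gated cells Ctsh and Ctss were not apart from the range of Marco, Cd5l and Clec4f in library 2, nor were Ctsc, Ctsh and Ctss in library 1.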

How the results depend on the processing

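No paired analysis was possible because each genotype has 1 mouse. Kupffer-gated cells had the highest summed level in both libraries under all 5 alternatives that select cells or gates. Over 10 alternatives (8 planned and 2 chosen after seeing the data), the log2 ratio of Ctsd lay between 1.22 and 1.61 and past 2-fold in all 10, that of Cstb between 0.82 and 1.48 and past 2-fold in 9, and that of Ctss between -1.10 and -0.79 and past 2-fold in 5. No member past 2-fold changed sign, while Ctsa did in 1 and Ctsl in 3 of the 10. The number of genes at least 2-fold lower, 1 in the report, was 0 with at most 40% mitochondrial UMIs, with the stricter gate (at least 4 markers, a lead of 3), with scaling without mitochondrial and globin genes, with scaling by the median gene, and with cells that had no erythroid marker. The number at least 2-fold higher, 2 in the report, was 1 in cells of 4000 to 8000 UMIs without shared barcodes and 3, with Ctsz at 1.12, with scaling by the median gene. Of all genes measured, 2.91% were higher and 9.17% lower in all gated cells, and 3.17% and 10.2% without shared barcodes. These shares were not computed for the other alternatives, so the counts under those have no share to be set against. The median log2 ratio of the 10 genes was 0.01 in the report. It was 0.13 without mitochondrial and globin genes in the scaling and 0.25 with scaling by the median gene. After thinning to 1000 UMIs, here with shared barcodes kept, it was -0.22, and in cells with no erythroid marker it was 0.068. Each scaling multiplies all 10 ratios by 1 factor; for the other alternatives the cause was not tested.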
